A study of Mus musculus with 26 samples.

Results

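The genes described here are the cytosolic and mitochondrial chaperones: the heat shock proteins of the HSP70, HSP90, HSP110 and HSP60 classes, their J protein and nucleotide exchange partners, the co-chaperones of HSP90, the CCT folding ring, small heat shock protein Hspb1, and the transcription factors Hsf1 and Hsf2. The set was a list of 38 gene symbols, out of 12384 genes named on the array, and the rule itself used no measured value. The list was, however, chosen with earlier results of these data known. Shares of members called, set beside all genes, are therefore descriptions and not independent of the data. Of the 38, 35 had a probe set that carried their symbol alone, and the brightest such probe set stood for each gene. Hsf1, Hsp90ab1 and Ptges3 had none and were not analysed here. Of the 35, 33 were bright enough to be tested, which required log2 5 or more on at least 3 arrays. Hsf2 lay between 3.33 and 4.06 and Hspa1a between 2.46 and 2.92 on the log2 scale on all arrays, so both were below this limit throughout.

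S49 is a line of mouse T lymphoma cells. Raised cyclic AMP (cAMP) arrests and later kills its wild-type (WT) cells, and D-, a single variant line named deathless, survives it. Both lines grew in suspension in medium with 10% horse serum and were given 8-CPT-cAMP, an analogue of cAMP that enters cells and activates protein kinase A, at a dose the labels write as 100 mM, which may be a unit error. RNA of 26 samples was hybridised to 1 single-colour Affymetrix array each. The groups were D- cells untreated (4 arrays) and after 2, 6 and 24 h of 8-CPT-cAMP (3 arrays each), and WT cells untreated (4 arrays) and after 2, 6 and 24 h (3 arrays each). Treated WT samples carry the word untreated with a time in their titles, while their other labels say treated, and here they count as treated. The labels call replicates biological without describing separate cultures, so the p-values rest on a spread among samples that may be technical.

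Chaperones bind proteins that are not yet folded or have lost their fold. HSP70 binds short stretches with the help of J proteins, which deliver the client and trigger ATP hydrolysis, and of exchange factors, which release ADP, and it can hand clients to HSP90 through the adaptor Stip1. The CCT ring folds actin and tubulin in the cytosol, and HSP60 with its lid HSP10 folds proteins imported into mitochondria. Many of these genes are induced by heat through HSF1, which binds a DNA motif called the heat shock element, and many are abundant in growing lymphocytes, where protein synthesis is fast.

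Values are the authors' GCRMA intensities on a log2 scale, and a level is compared only within 1 probe set. Within a group, the correlation between arrays over probe sets (not independent replicates) was 0.972 to 0.995. Deviations from the group means split the arrays in 2 clusters of 10 and 16. The smaller held replicates 1 and 2 of each untreated group and replicate 1 of each treated group, and its Gapdh 3' minus 5' signal averaged -0.146 ± 0.0580, against 0.0180 ± 0.0942 in the other (log2, SD over 10 and 16 arrays). The clusters are not in the labels, and what sets them apart was not tested. All 9 T cell markers with a probe set were above log2 5 on every array, although Cd4 (5.16 to 5.86) and Cd8a (5.71 to 6.45) lay close to that limit. Of the B cell markers 0 of 5, of the erythroid markers 0 of 3, of the myeloid markers 1 of 6 (Csf1r) and of the stromal markers 1 of 5 (Vim, which lymphocytes also express) were above it on every array. Summed intensity of the T cell markers moved with treatment: in D- cells it was 22626 to 27359 untreated, 13906 to 18132 at 2 h, 15461 to 18888 at 6 h and 35029 to 38048 at 24 h, and in WT cells 23537 to 27295, 15896 to 18710, 17607 to 20415 and 29133 to 35989 at the same times. That of the stromal markers was highest at 6 h in both lines, 15297 to 24392 in D- and 13440 to 17440 in WT cells. The myeloid sum at 24 h was 138 to 246 in WT cells, against 117 to 138 untreated. In D- cells it was 124 to 200 at 24 h, against 116 to 143 untreated. The part of these shifts in the changes below was not tested. In a bulk RNA sample, fewer cells of a type and less RNA per cell cannot be told apart.

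Most of the chaperone genes fell by 24 h of 8-CPT-cAMP, with a lower median change in WT than in D- cells, while a small group led by the J proteins Dnaja1 and Dnajb6 and the HSP70 co-chaperone St13 rose early in both lines. Changes were tested with limma against untreated cells of the same line and called at an adjusted p under 0.05 over all 12724 probe sets tested, and the shares given for all genes are over 7433 genes. At 2 h in D- cells 5 of 33 members rose and 1 fell, which is 15.2% and 3.03%, against 9.05% and 13.3% of all genes. At 2 h in WT cells 3 rose and 1 fell (9.09% and 3.03%), against 11.2% and 13.9% of all genes. The share of members that rose was thus near that of all genes in WT cells and above it in D- cells, and with so few calls neither gap was tested.

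By 6 h the falls had spread. In D- cells 5 members rose and 11 fell (15.2% and 33.3%), against 16.2% and 15.6% of all genes, with a median log2 change of -0.16 over the 33 members and -0.02 over all genes. In WT cells 4 rose and 21 fell (12.1% and 63.6%), against 19.1% and 19.1% of all genes, with a median of -0.42 over the members and -0.01 over all genes. The 11 members that fell in D- cells also fell in WT cells, and 10 more passed the threshold in WT cells and not in D- cells, although the line difference at 6 h passed for 0 members (below 0.05 before adjustment for 11).

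At 24 h 3 members rose and 20 fell in D- cells (9.09% and 60.6%), against 17.1% and 17.6% of all genes, with medians of -0.37 and -0.02. In WT cells 2 rose and 23 fell (6.06% and 69.7%), against 26.4% and 27.5% of all genes, with medians of -0.57 and 0.00. The falls at 24 h were shared by 20 members in both lines. Bag3, Chordc1 and Hspb1 passed the threshold at no time in either line. The array clusters were drawn from deviations of these same arrays, so counts within 1 of them are not separate support. In the larger array cluster alone, 18 members passed at 6 h and 22 at 24 h in D- cells, and 24 and 25 in WT cells. In the smaller cluster, which has 1 treated array per group, 2 and 1 passed in D- and 3 and 16 in WT cells, with medians at 24 h of -0.34 in D- and -0.50 in WT cells, against -0.46 and -0.62 in the larger cluster. The values were normalized between arrays, so these changes are relative to the other genes on the array.

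**Figure D1:**
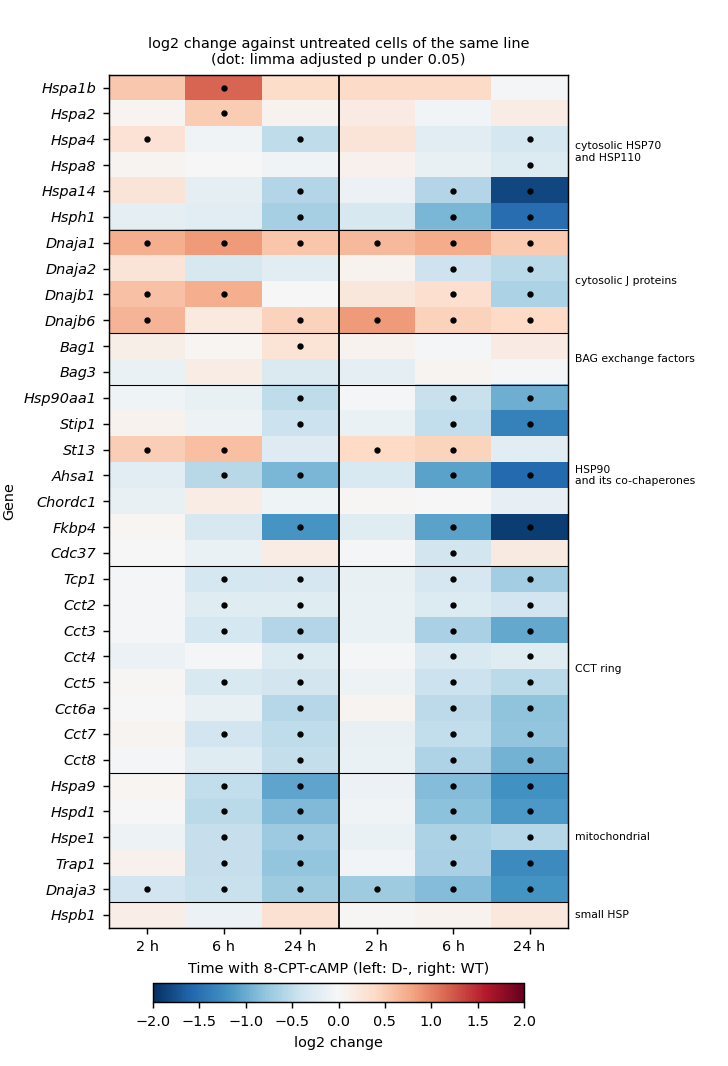
Log2 change of each of the 33 tested members (vertical axis, grouped by role) against untreated cells of the same line, at 2, 6 and 24 h of 8-CPT-cAMP (horizontal axis, D- left and WT right). Red is higher, blue is lower, and a dot marks a limma adjusted p under 0.05. The CCT and mitochondrial members turn blue by 24 h in both lines, and the J proteins Dnaja1 and Dnajb6 stay red.

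Promoter stretches are shown for members whose levels are described below, because several of them hold the heat shock element that HSF1 binds and they moved in different directions. RefSeq promoters (GRCm38.p6, 250 bases before to 50 after a start) were available for 31 of the 38 members and for 27025 genes in all. A heat shock element of 3 alternating units, written GAANNTTCNNGAA or TTCNNGAANNTTC and searched on both strands, was in the promoters of 5 of the 31 members (16.1%: Chordc1, Dnajb6, Hspd1, Hspe1 and Hsph1) and of 0.662% of all genes. The shorter GAANNTTC, which also lies inside the longer motif, was in 12 members (38.7%) and 9.04% of all genes, and TTCNNGAA, likewise part of it, in 8 members (25.8%) and 9.6% of all genes. The palindromic cAMP response element TGACGTCA was in 1 member, Trap1 (3.23%), and 2.03% of all genes. The CCAAT box, CCAAT or ATTGG, was in 17 members (54.8%) and 41.1% of all genes. A match is a description of these letters and not a sign of binding. Capitals mark the matched element and lower case its flanks. The Hspd1, Hspe1 and Dnajb6 stretches show the element of 3 units, and those of Dnaja1, Hspa1b, Hspa1a and Fkbp4 the shorter GAANNTTC alone.
Hspd1, chr1:55088039-55088096, minus strand: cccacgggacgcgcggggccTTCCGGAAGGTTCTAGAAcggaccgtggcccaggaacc
Hspe1, chr1:55088039-55088096, plus strand: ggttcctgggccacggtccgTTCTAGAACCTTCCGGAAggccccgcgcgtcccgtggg
Dnajb6, chr5:29735832-29735884, plus strand: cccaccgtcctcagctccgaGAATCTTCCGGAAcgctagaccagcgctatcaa
Dnaja1, chr4:40722324-40722371, plus strand: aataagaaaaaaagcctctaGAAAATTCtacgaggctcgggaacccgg
Hspa1b, chr17:34959315-34959362, minus strand: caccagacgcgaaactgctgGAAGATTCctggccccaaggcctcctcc
Hspa1a, chr17:34972233-34972280, minus strand: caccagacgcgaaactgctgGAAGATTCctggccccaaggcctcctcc
Fkbp4, chr6:128438780-128438827, minus strand: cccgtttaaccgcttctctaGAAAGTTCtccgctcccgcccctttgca
Trap1, chr16:4077830-4077877, minus strand: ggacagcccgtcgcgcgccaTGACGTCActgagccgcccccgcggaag
Hspd1 and Hspe1 share 1 interval read on opposite strands, in which elements of 3 units overlap in a run. The run stands 144 to 127 bases before 1 annotated start of Hspd1 and 89 to 72 before the start of Hspe1. Of the tested members with the element of 3 units, Hspd1, Hspe1 and Hsph1 fell at 24 h in both lines. Dnajb6 rose at that time in both, and Chordc1 passed at no time. Some other tested members had a shorter match alone, of the kind found in 9.04% or 9.6% of all genes. The rest had no heat shock element match or no promoter available. Among those with a shorter match alone, Fkbp4, Cct2, Cct5 and Cct6a fell at 24 h in both lines, and Dnaja1 rose in both. Hspa1b rose at 6 h in D- cells and passed at no other time in either line. Cdc37 fell at 6 h in WT cells, and Bag3 and Hspb1 passed at no time. The Hspa1b and Hspa1a stretches are the same letters, and both elements lie 104 to 97 bases before the start. The Trap1 element is the cAMP response element, 47 to 40 bases before the start, and Trap1 fell at 6 and 24 h in both lines.

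Among the cytosolic HSP70 and HSP110 proteins, 6 members were tested: Hspa1b and Hspa2 rose at 6 h in D- cells, and Hspa4, Hspa14 and Hsph1 fell at 24 h in both lines. Hspa1b encodes the stress-inducible HSP70, and its near-identical copy Hspa1a may share signal with it, so which copy was measured is uncertain. In D- cells Hspa1b read 6.06, 6.13, 5.76 and 5.93 untreated, 6.72, 6.65 and 6.18 at 2 h, 6.90, 7.32 and 7.19 at 6 h and 5.96, 6.38 and 6.69 at 24 h. The WT arrays of Hspa1b read 6.12, 6.20, 5.73 and 5.84 untreated, 6.90, 6.17 and 5.99 at 2 h, 6.50, 6.20 and 6.36 at 6 h and 6.10, 5.86 and 5.91 at 24 h. All D- arrays at 6 h stood above all untreated D- arrays. The lowest WT array at 6 h and the highest untreated WT array came within rounding of each other at 6.20. The log2 change at 6 h was 1.17 ± 0.20 (limma adjusted p = 0.000105) in D- cells, 2.25 times higher on the linear scale, and 0.38 ± 0.20 (limma adjusted p = 0.145) in WT cells. The difference between these responses was 0.79 ± 0.28 (limma adjusted p = 0.424) and did not pass. The other 2 probe sets of Hspa1b gave D- changes at 6 h of 1.97 (limma adjusted p = 0.000249) and 1.75 (limma adjusted p = 6.16e-05), with line differences of 1.95 (limma adjusted p = 0.114) and 1.06 (limma adjusted p = 0.50).

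Hspa8, the constitutive HSP70 of the cytosol, passed at 24 h in WT cells and at no other time in either line. In D- cells it read 14.83, 14.94, 14.61 and 14.79 untreated, 14.83, 14.94 and 14.75 at 2 h, 14.82, 14.71 and 14.83 at 6 h and 14.65, 14.64 and 14.87 at 24 h. WT cells gave 14.78, 14.66, 14.83 and 14.70 untreated, 14.74, 14.92 and 14.84 at 2 h, 14.55, 14.63 and 14.60 at 6 h and 14.56, 14.38 and 14.44 at 24 h. The WT arrays at 24 h all stood below the untreated WT arrays, and the D- groups overlapped at every time. Its log2 change at 24 h was -0.07 ± 0.09 (limma adjusted p = 0.587) in D- cells and -0.28 ± 0.09 (limma adjusted p = 0.0104) in WT cells, and the WT call ended without WT 24 h replicate 2, at -0.24 (limma adjusted p = 0.0552). The average over the Hspa8 probe sets gave a larger WT change of -0.58 (limma adjusted p = 8.66e-05). Hspa2, an HSP70 best known from the testis, rose at 6 h in D- cells (0.50 ± 0.15, limma adjusted p = 0.0147), and its WT change of -0.05 ± 0.15 did not pass. That D- call ended without D- 6 h replicate 3 (0.37, limma adjusted p = 0.115) and without untreated D- replicate 2 (0.43, limma adjusted p = 0.0504), and the line difference was 0.55 ± 0.21 (limma adjusted p = 0.526).

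Hspa4, an HSP110-class exchange factor for HSP70, was measured by probe sets that disagreed. The brightest gave 0.29 ± 0.10 (limma adjusted p = 0.0347) at 2 h in D- cells, a call that ended when any of 5 arrays was left out (limma adjusted p 0.052 to 0.105), and a dimmer one gave -0.98 (limma adjusted p = 0.00528). At 24 h the brightest fell in both lines, with log2 changes of -0.51 ± 0.10 (limma adjusted p = 0.000278) in D- and -0.35 ± 0.10 (limma adjusted p = 0.00409) in WT cells. Hspa14, a ribosome-linked HSP70, and Hsph1, the HSP110 that frees ADP from HSP70, fell in both lines at 24 h and are described in full with the differences between lines.

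The cytosolic J proteins were 4 of the 33 tested members. Among the members that rose, they were 3 of 5 at 2 h, 2 of 5 at 6 h and 2 of 3 at 24 h in D- cells. In WT cells they were 2 of 3, 3 of 4 and 2 of 2. Of the 4, 0 fell in D- cells, and 1 fell at 6 h and 2 at 24 h in WT cells. Of all genes 9.05%, 16.2% and 17.1% rose at 2, 6 and 24 h in D- cells, and 11.2%, 19.1% and 26.4% in WT cells. Dnaja1, a farnesylated J protein partner of HSP70, read 12.17, 12.04, 12.38 and 12.49 untreated, 12.86, 13.03 and 13.12 at 2 h, 12.94, 13.23 and 13.22 at 6 h and 12.47, 12.95 and 13.08 at 24 h in D- cells. In WT cells it read 12.28, 12.13, 12.52 and 12.30 untreated, 12.63, 13.03 and 13.19 at 2 h, 12.58, 13.37 and 13.19 at 6 h and 12.48, 13.06 and 12.97 at 24 h. In both lines every array at 2 and 6 h stood above every untreated array, whereas 1 array of each line at 24 h lay within the untreated range. Its log2 changes at 2, 6 and 24 h were 0.73 ± 0.19, 0.86 ± 0.19 and 0.56 ± 0.19 in D- cells (limma adjusted p = 0.00707, 0.00147 and 0.0262). In WT cells they were 0.64 ± 0.19, 0.74 ± 0.19 and 0.53 ± 0.19 (limma adjusted p = 0.0152, 0.00412 and 0.0233). The calls at 24 h ended when any of 4 arrays was left out in D- (limma adjusted p 0.060 to 0.142: untreated replicates 1 and 2 and 24 h replicates 2 and 3). In WT cells any of 3 ended it (0.0629 to 0.121: untreated replicate 2 and 24 h replicates 2 and 3). The WT call at 2 h ended without 2 h replicate 2 or 3 (0.0599 and 0.0995). A second probe set of Dnaja1 passed at all 3 times in both lines, with changes of 1.38, 1.15 and 0.75 in D- and 1.09, 0.96 and 0.56 in WT cells.

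Dnajb6, a J protein that keeps polyglutamine and other aggregation-prone proteins soluble, read 11.29, 11.23, 11.54 and 11.40 untreated, 11.89, 12.06 and 12.19 at 2 h, 11.41, 11.63 and 11.63 at 6 h and 11.70, 11.82 and 11.96 at 24 h in D- cells. Dnajb6 in WT cells read 11.22, 11.30, 11.37 and 11.30 untreated, 11.86, 12.34 and 12.23 at 2 h, 11.38, 12.05 and 11.86 at 6 h and 11.59, 11.83 and 11.68 at 24 h. The 2 h arrays of both lines were the brightest as groups and stood clear of the untreated arrays, and at 6 h the D- arrays overlapped the untreated ones. Its changes at 2 h were 0.68 ± 0.14 (limma adjusted p = 0.000896) in D- and 0.85 ± 0.14 (limma adjusted p = 8.2e-05) in WT cells. At 24 h they were 0.46 ± 0.14 (limma adjusted p = 0.0121) in D- and 0.40 ± 0.14 (limma adjusted p = 0.0182) in WT cells, and 1 array decided each of these calls: without D- 24 h replicate 3 the change was 0.40 (limma adjusted p = 0.0674), and without WT 24 h replicate 2 it was 0.33 (limma adjusted p = 0.090). The WT call at 6 h, 0.46 ± 0.14, ended without WT 6 h replicate 2 or 3 (limma adjusted p 0.114 and 0.0567). The 3 other Dnajb6 probe sets had changes above 0 at every time in both lines, and the largest of their WT changes at 24 h was 1.21 (limma adjusted p = 2.08e-06).

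Dnajb1, the stress-inducible J protein of HSP70, rose at 2 and 6 h in D- cells and at 6 h in WT cells, and fell at 24 h in WT cells. In D- cells it read 10.04, 10.07, 9.94 and 10.13 untreated, 10.63, 10.61 and 10.68 at 2 h, 10.57, 10.95 and 10.78 at 6 h and 9.95, 10.03 and 10.13 at 24 h. The values of WT cells were 10.13, 10.03, 10.21 and 10.45 untreated, 10.28, 10.50 and 10.52 at 2 h, 10.44, 10.63 and 10.58 at 6 h and 9.32, 9.67 and 9.75 at 24 h. D- arrays at 24 h overlapped their untreated range, and WT arrays at 24 h lay below every untreated WT array. The changes were 0.59 ± 0.12 (limma adjusted p = 0.000587) at 2 h and 0.72 ± 0.12 (limma adjusted p = 6.19e-05) at 6 h in D- cells, against 0.23 ± 0.12 (limma adjusted p = 0.169) and 0.34 ± 0.12 (limma adjusted p = 0.0234) in WT cells. The WT call at 6 h ended when any of 4 arrays was left out (limma adjusted p 0.0582 to 0.0987: untreated replicates 1 and 2 and 6 h replicates 2 and 3). At 24 h the change was -0.01 ± 0.12 (limma adjusted p = 0.958) in D- cells and -0.63 ± 0.12 (limma adjusted p = 9.07e-05) in WT cells.

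Dnaja2, a further HSP70 J protein, was measured by probe sets that disagreed. Its brightest probe set changed by -0.42 ± 0.12 at 6 h and -0.54 ± 0.12 at 24 h in WT cells (limma adjusted p = 0.0113 and 0.000806), and by -0.32 ± 0.12 and -0.23 ± 0.12 in D- cells, which did not pass (limma adjusted p = 0.056 and 0.163). The D- change at 6 h lay close to the threshold and passed under several alternatives. With the replicate block it was -0.27 (limma adjusted p = 0.0365). With the array cluster as a block it was -0.36 (limma adjusted p = 0.000699). That cluster was drawn from the deviations of these same arrays, so its smaller p is not separate support. The WT call at 6 h ended without WT 6 h replicate 1 (-0.28, limma adjusted p = 0.0952). A dimmer probe set fell at every time in both lines, with log2 changes at 2 h of -1.59 in D- and -1.82 in WT cells, when the brightest changed by 0.25 and 0.06.

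**Figure D2:**
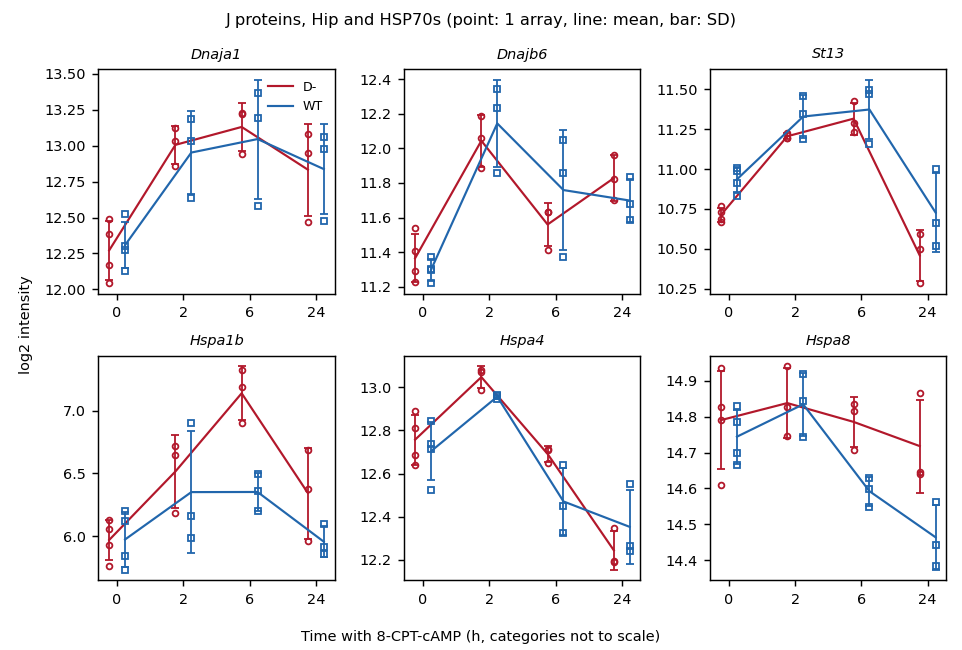
Log2 intensity (vertical axes, separate scales) of Dnaja1, Dnajb6, St13, Hspa1b, Hspa4 and Hspa8 against time with 8-CPT-cAMP (0, 2, 6 and 24 h, spaced as categories). Each point is 1 array (D- circles, WT squares), lines join group means and bars are SDs (n = 4 at 0 h, 3 at other times). Dnaja1 stands at 12.86 or above in D- and 12.58 or above in WT cells at 2 and 6 h, and Hspa1b in D- cells peaks at 6 h.

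Among the members that are BAG exchange factors or small heat shock proteins, Bag1 was the 1 that passed. Bag1, an exchange factor that also binds BCL2, rose at 24 h in D- cells by 0.27 ± 0.10 (limma adjusted p = 0.0469), and its WT change was 0.16 ± 0.10 (limma adjusted p = 0.191). The D- call ended when any of 5 arrays was left out (limma adjusted p 0.0517 to 0.229), and with only the groups compared it was 0.27 (limma adjusted p = 0.14). Bag3, the stress-induced exchange factor, read 7.33 to 7.98 in D- cells and 7.34 to 7.89 in WT cells over all times. Hspb1, the small heat shock protein HSP27, read 4.96 to 6.04 in D- cells and 5.30 to 5.74 in WT cells, close to the limit for testing.

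HSP90 and its co-chaperones were 7 tested members, of which 4 fell at 24 h in both lines. At that time 17.6% of all genes fell in D- and 27.5% in WT cells. Hsp90aa1 encodes the inducible HSP90. In D- cells it read 13.90, 13.83, 14.05 and 14.00 untreated, 13.76, 13.94 and 13.90 at 2 h, 13.63, 13.93 and 13.84 at 6 h and 13.25, 13.59 and 13.46 at 24 h. The WT arrays of Hsp90aa1 read 13.78, 13.64, 13.90 and 13.96 untreated, 13.64, 13.81 and 13.89 at 2 h, 13.33, 13.34 and 13.47 at 6 h and 13.03, 12.75 and 12.75 at 24 h. At 24 h both lines lay below their own untreated arrays, and the WT arrays lay below all D- arrays of that time. The log2 change at 24 h was -0.51 ± 0.11 (limma adjusted p = 0.000792) in D- cells and -0.98 ± 0.11 (limma adjusted p = 1.45e-07) in WT cells. The difference of response, 0.46 ± 0.15 (limma adjusted p = 0.0519), just missed the threshold with the brightest probe set, and the other 2 probe sets gave 0.77 (limma adjusted p = 0.00657) and 0.85 (limma adjusted p = 0.0281).

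Ahsa1, which stimulates the ATPase of HSP90, read 11.17, 11.38, 11.43 and 11.32 untreated, 11.11, 11.06 and 11.11 at 2 h, 10.79, 10.75 and 10.80 at 6 h and 10.68, 10.38 and 10.19 at 24 h in D- cells. WT cells gave 11.38, 11.67, 11.20 and 11.30 untreated, 11.20, 11.02 and 11.00 at 2 h, 10.51, 10.16 and 10.29 at 6 h and 10.15, 9.49 and 9.86 at 24 h. Treated arrays at 6 and 24 h lay below all untreated arrays in both lines. Its changes at 6 h were -0.55 ± 0.14 (limma adjusted p = 0.00436) in D- and -1.06 ± 0.14 (limma adjusted p = 3.94e-06) in WT cells, and at 24 h -0.91 ± 0.14 (limma adjusted p = 2.62e-05) in D- and -1.55 ± 0.14 (limma adjusted p = 8.03e-09) in WT cells, which is 1.88 times lower and 2.94 times lower on the linear scale.

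Fkbp4, the immunophilin FKBP52 that joins HSP90 to steroid receptors, had the lowest log2 change of the 33 tested members at 24 h in each line. In D- cells it read 11.18, 11.14, 11.33 and 11.32 untreated, 11.28, 11.26 and 11.31 at 2 h, 10.99, 10.88 and 10.92 at 6 h and 10.35, 10.07 and 9.78 at 24 h. In WT cells it read 11.56, 11.66, 11.40 and 11.45 untreated, 11.21, 11.30 and 11.29 at 2 h, 10.70, 10.28 and 10.37 at 6 h and 10.05, 9.34 and 9.46 at 24 h. WT arrays were already below their untreated arrays at 2 h, and D- arrays from 6 h. At 6 h the change was -0.31 ± 0.14 (limma adjusted p = 0.104) in D- and -1.07 ± 0.14 (limma adjusted p = 5.38e-06) in WT cells. At 24 h it was -1.18 ± 0.14 (limma adjusted p = 1.63e-06) in D- cells, 2.26 times lower, and -1.90 ± 0.14 (limma adjusted p = 8.13e-10) in WT cells, 3.73 times lower. A second probe set, with a mean of 5.25 near the limit for testing, changed by -0.09 and -0.09, so the mean of both gave smaller changes of -0.63 (limma adjusted p = 7.09e-06) in D- cells and -0.995 in WT cells (limma adjusted p = 4.91e-09).

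St13, also called HIP, which steadies the ADP-bound form of HSP70, went the other way. It read 10.67, 10.69, 10.73 and 10.77 untreated, 11.19, 11.23 and 11.20 at 2 h, 11.23, 11.29 and 11.43 at 6 h and 10.50, 10.28 and 10.59 at 24 h in D- cells. St13 in WT cells read 10.83, 11.01, 10.92 and 10.99 untreated, 11.19, 11.34 and 11.46 at 2 h, 11.16, 11.47 and 11.49 at 6 h and 10.52, 10.66 and 11.00 at 24 h. The 2 and 6 h arrays of both lines stood above their untreated arrays, and at 24 h the D- arrays stood below them. The changes were 0.49 ± 0.11 (limma adjusted p = 0.00215) at 2 h and 0.60 ± 0.11 (limma adjusted p = 0.000237) at 6 h in D- cells, against 0.39 ± 0.11 (limma adjusted p = 0.0106) and 0.44 ± 0.11 (limma adjusted p = 0.0034) in WT cells. The WT call at 2 h ended without WT 2 h replicate 3, at 0.33 (limma adjusted p = 0.0722). At 24 h the changes of -0.26 ± 0.11 in D- and -0.21 ± 0.11 in WT cells did not pass.

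Cdc37, which brings protein kinases to HSP90, was lower in WT cells at 6 h (-0.36 ± 0.08, limma adjusted p = 0.00169), with a D- change of -0.13 ± 0.08 (limma adjusted p = 0.275). Its arrays at 24 h read 11.32, 11.39 and 11.41 in D- and 11.57, 11.80 and 11.63 in WT cells, within or above their untreated ranges. Chordc1, an HSP90-binding zinc protein also called morgana, read 10.65 to 11.36 in D- and 10.69 to 11.36 in WT cells over all times and passed in no comparison. Stip1, the adaptor between HSP70 and HSP90, fell at 24 h in both lines and follows with the differences between lines.

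All 8 measured subunits of the CCT ring fell at 24 h in both lines, and none passed at 2 h, when their changes ran from -0.12 to 0.05 in D- and from -0.15 to 0.06 in WT cells. Of all genes 15.6% fell at 6 h and 17.6% at 24 h in D- cells, and 19.1% and 27.5% in WT cells. At 6 h 5 of 8 fell in D- cells (Tcp1, Cct2, Cct3, Cct5 and Cct7) and 8 of 8 in WT cells, with medians of -0.28 and -0.46. The D- count of 5 at 6 h rests on members near the threshold. Cct8, at -0.25 ± 0.10 (limma adjusted p = 0.0535), passed with array weights at -0.29 (limma adjusted p = 0.0024). It also passed with the array cluster as a block at -0.24 (limma adjusted p = 0.0393), a block drawn from deviations of these same arrays. Cct2 was lost with the replicate block at -0.23 (limma adjusted p = 0.0523) and when any of 4 arrays was left out. The difference of response at 6 h did not pass for any subunit, and Cct8 had the smallest p, with 0.37 ± 0.14 (limma adjusted p = 0.49). At 24 h the medians were -0.43 in D- and -0.75 in WT cells. Cct3 read 12.69, 12.35 and 12.41 at 24 h in D- cells, against 13.08, 13.09, 13.11 and 13.03 untreated. In WT cells it read 12.49, 12.01 and 11.77 at 24 h, against 13.13, 13.18, 13.05 and 13.05 untreated. Its groups did not overlap in either line, and the change at 24 h was -0.59 ± 0.12 (limma adjusted p = 0.00073) in D- and -1.02 ± 0.12 (limma adjusted p = 4.84e-07) in WT cells. Tcp1, the alpha subunit, read 13.08, 12.97 and 13.20 at 24 h in D- cells, against 13.42, 13.20, 13.55 and 13.51 untreated, and 12.79, 12.74 and 12.65 in WT cells, against 13.38, 13.38, 13.48 and 13.45 untreated. The D- groups of Tcp1 came within rounding of each other at 13.20, and its WT groups did not overlap.

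At 24 h the log2 changes in D- and then WT cells were -0.34 and -0.70 for Tcp1, -0.24 and -0.39 for Cct2, -0.27 and -0.25 for Cct4, and -0.37 and -0.55 for Cct5. For Cct6a they were -0.58 and -0.80, for Cct7 -0.51 and -0.80, and for Cct8 -0.48 and -0.94. Cct4 had the smallest WT change and Cct2 and Cct4 the smallest D- changes, and these rested on single arrays: the Cct4 call at 24 h ended when any of 4 arrays was left out in D- (limma adjusted p 0.124 to 0.172) or any of 6 in WT cells (0.0656 to 0.106). The Cct2 calls in D- cells at 6 and 24 h each ended without any of 4 arrays (limma adjusted p 0.0685 to 0.163 and 0.0981 to 0.114). The D- call of Cct3 at 6 h ended without any of 5 arrays (limma adjusted p 0.0587 to 0.149), and that of Cct5 at 6 h without 6 h replicate 1 (0.0854). In WT cells at 6 h the Cct2 call ended without 6 h replicate 3 (limma adjusted p = 0.0924), and the Cct4 call without untreated replicate 1 or 6 h replicate 3 (0.0567 and 0.154).

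The mitochondrial chaperones were 5 tested members, and all 5 fell at 6 and at 24 h in both lines. At these times 15.6% and 17.6% of all genes fell in D- cells, and 19.1% and 27.5% in WT cells. Hspd1, the HSP60 ring of the mitochondrial matrix, read 14.00, 13.83, 14.13 and 14.10 untreated, 13.82, 14.13 and 14.11 at 2 h, 13.44, 13.48 and 13.52 at 6 h and 13.14, 13.10 and 13.18 at 24 h in D- cells. The values of WT cells were 13.85, 13.87, 14.05 and 13.93 untreated, 13.76, 13.90 and 13.92 at 2 h, 13.24, 13.13 and 12.93 at 6 h and 13.07, 12.57 and 12.70 at 24 h. In both lines the 2 h arrays overlapped the untreated arrays and all arrays at 6 and 24 h lay below them. The change was -0.54 ± 0.11 (limma adjusted p = 0.000871) at 6 h and -0.88 ± 0.11 (limma adjusted p = 3e-06) at 24 h in D- cells, against -0.82 ± 0.11 (limma adjusted p = 6.64e-06) and -1.15 ± 0.11 (limma adjusted p = 2.68e-08) in WT cells.

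Hspe1, the HSP10 lid whose gene shares the promoter interval shown above with Hspd1, read 13.13, 13.27, 13.24 and 13.14 untreated, 13.10, 13.04 and 13.15 at 2 h, 12.73, 12.71 and 12.78 at 6 h and 12.73, 12.40 and 12.27 at 24 h in D- cells. The WT arrays of Hspe1 read 13.13, 13.30, 13.04 and 13.07 untreated, 13.04, 13.09 and 12.87 at 2 h, 12.67, 12.29 and 12.52 at 6 h and 12.71, 12.45 and 12.53 at 24 h. Its 6 and 24 h arrays also lay below all untreated arrays of their line. The change was -0.46 ± 0.11 (limma adjusted p = 0.00268) at 6 h and -0.73 ± 0.11 (limma adjusted p = 2.01e-05) at 24 h in D- cells, against -0.64 ± 0.11 (limma adjusted p = 9.04e-05) and -0.57 ± 0.11 (limma adjusted p = 0.000136) in WT cells. Hspe1 was 1 of 7 members whose WT change at 24 h was not below the D- change.

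Hspa9, the mitochondrial HSP70 also called mortalin, read 12.55, 12.36, 12.52 and 12.65 untreated, 12.46, 12.58 and 12.67 at 2 h, 12.04, 11.98 and 12.05 at 6 h and 11.51, 11.43 and 11.45 at 24 h in D- cells. WT cells gave 12.57, 12.33, 12.60 and 12.56 untreated, 12.38, 12.41 and 12.42 at 2 h, 11.75, 11.56 and 11.66 at 6 h and 11.61, 11.12 and 11.21 at 24 h. Arrays at 6 and 24 h lay below all untreated arrays in both lines. The change at 24 h was -1.06 ± 0.10 (limma adjusted p = 7.94e-08) in D- and -1.21 ± 0.10 (limma adjusted p = 4.54e-09) in WT cells, 2.08 times lower and 2.31 times lower. Trap1, the HSP90 of mitochondria, changed by -0.79 ± 0.14 (limma adjusted p = 0.000144) in D- and -1.27 ± 0.14 (limma adjusted p = 1.5e-07) in WT cells at 24 h. Its D- call at 6 h, -0.45 ± 0.14, ended without untreated replicate 3 or 6 h replicate 1 or 2 (limma adjusted p 0.051 to 0.0613).

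Dnaja3, the mitochondrial J protein also called TID1, was the 1 member that fell at 2 h. In D- cells it read 8.36, 8.51, 8.50 and 8.41 untreated, 8.08, 8.14 and 7.96 at 2 h, 8.03, 7.94 and 8.05 at 6 h and 7.80, 7.52 and 7.87 at 24 h. In WT cells it read 8.50, 8.63, 8.70 and 8.55 untreated, 7.86, 7.80 and 8.01 at 2 h, 7.83, 7.70 and 7.66 at 6 h and 7.54, 7.22 and 7.43 at 24 h. Every treated array lay below every untreated array of its line. Its changes at 2, 6 and 24 h were -0.39 ± 0.10, -0.44 ± 0.10 and -0.72 ± 0.10 in D- cells (limma adjusted p = 0.00502, 0.00134 and 5.73e-06). In WT cells they were -0.71 ± 0.10, -0.86 ± 0.10 and -1.20 ± 0.10 (limma adjusted p = 8.85e-06, 5.49e-07 and 1.96e-09).

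**Figure D3:**
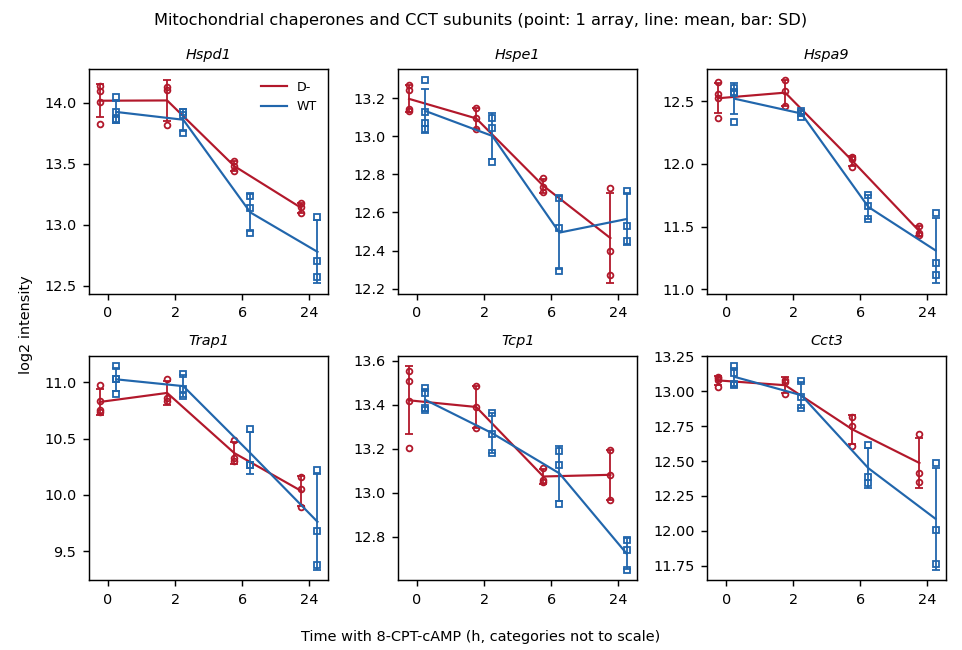
Log2 intensity (vertical axes, separate scales) of the mitochondrial members Hspd1, Hspe1, Hspa9 and Trap1 and the CCT subunits Tcp1 and Cct3 against time with 8-CPT-cAMP (0, 2, 6 and 24 h, spaced as categories). Each point is 1 array (D- circles, WT squares), lines join group means and bars are SDs (n = 4 at 0 h, 3 at other times). All 6 genes lie below their untreated arrays at 24 h in both lines.

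Untreated D- and WT cells differed in 1 of the 33 members: 3.03% were higher and 0 lower in D- cells, against 1.91% and 3.09% of all genes, with a median difference of 0.00. That member was Hsph1, which frees ADP from HSP70 and resembles Hspa4. In D- cells Hsph1 read 11.71, 11.98, 12.04 and 12.08 untreated, 11.56, 11.79 and 11.93 at 2 h, 11.50, 11.84 and 11.85 at 6 h and 11.04, 11.17 and 11.63 at 24 h. Hsph1 in WT cells read 11.42, 11.62, 11.26 and 11.29 untreated, 11.22, 10.96 and 11.04 at 2 h, 10.61, 10.38 and 10.44 at 6 h and 9.94, 9.68 and 10.03 at 24 h. The D- arrays stood above all WT arrays of the same time, also before treatment. The untreated difference was 0.55 ± 0.13 (limma adjusted p = 0.0143), 1.47 times higher in D- cells, and a second probe set gave 0.65 (limma adjusted p = 0.0205). The call of the brightest probe set ended without untreated D- replicate 4 (0.51, limma adjusted p = 0.060), WT replicate 3 (0.51, limma adjusted p = 0.056) or WT replicate 4 (0.52, limma adjusted p = 0.0552).

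For most members the D- response lay above the WT response. The D- change exceeded the WT change in 26 of 33 members at 2 h, 30 at 6 h and 26 at 24 h, and the median D- minus WT difference over the members was 0.10, 0.23 and 0.23 on the log2 scale, against -0.01, 0.00 and -0.01 over all genes. The members were read on the same arrays, so these counts are not independent observations, and the share over all genes was not computed. Tested gene by gene, 0 members passed at 2 h, against 0.0538% of all genes higher and 0.188% lower, although 2 had an unadjusted p under 0.05. At 6 h 0 passed, against 0.148% and 0.444%, with 11 at an unadjusted p under 0.05. At 24 h 8 passed, all with the D- change above the WT change (24.2%), against 7.32% of all genes higher and 5% lower.

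Of these 8, Hspa14, an HSP70 that acts at the ribosome, differed most. In D- cells it read 11.11, 10.75, 10.82 and 10.93 untreated, 11.37, 11.04 and 11.08 at 2 h, 10.72, 10.57 and 10.87 at 6 h and 10.53, 10.35 and 10.07 at 24 h. The values of WT cells were 11.14, 11.03, 10.74 and 10.86 untreated, 11.21, 10.76 and 10.50 at 2 h, 10.68, 10.40 and 9.99 at 6 h and 9.43, 9.02 and 8.91 at 24 h. Untreated arrays of the lines overlapped, and at 24 h the WT arrays lay below all D- arrays by more than the spread of either. The change at 24 h was -0.59 ± 0.18 (limma adjusted p = 0.0129) in D- cells, 1.5 times lower, and -1.83 ± 0.18 (limma adjusted p = 2.41e-08) in WT cells, 3.54 times lower. The difference of response was 1.24 ± 0.25 (limma adjusted p = 0.00195). Without D- 24 h replicate 3 the D- change was -0.47 (limma adjusted p = 0.0871), and without WT 6 h replicate 3 the WT change at 6 h, -0.59 ± 0.18 in full, was -0.40 (limma adjusted p = 0.116).

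Stip1, which holds HSP70 and HSP90 together, read 11.90, 11.78, 11.93 and 11.91 untreated, 11.85, 12.06 and 11.93 at 2 h, 11.70, 11.78 and 11.87 at 6 h and 11.45, 11.37 and 11.55 at 24 h in D- cells. The WT arrays of Stip1 read 11.87, 11.94, 11.91 and 11.93 untreated, 11.68, 11.90 and 11.76 at 2 h, 11.42, 11.39 and 11.45 at 6 h and 11.00, 10.31 and 10.35 at 24 h. The lines overlapped before treatment and at 2 h, and the WT arrays lay below the D- arrays at 6 and 24 h. The change at 24 h was -0.43 ± 0.12 (limma adjusted p = 0.00786) in D- and -1.36 ± 0.12 (limma adjusted p = 6.46e-09) in WT cells, and the difference was 0.93 ± 0.17 (limma adjusted p = 0.000737). For Hsph1, whose arrays are given above, the changes at 24 h were -0.67 ± 0.14 (limma adjusted p = 0.000894) in D- and -1.52 ± 0.14 (limma adjusted p = 1.64e-08) in WT cells, with a difference of 0.84 ± 0.20 (limma adjusted p = 0.00726). Its WT change at 6 h was -0.92 ± 0.14 (limma adjusted p = 3.3e-05), against -0.22 ± 0.14 (limma adjusted p = 0.272) in D- cells.

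The other 5 were Fkbp4 (0.72 ± 0.20, limma adjusted p = 0.0211), Ahsa1 (0.64 ± 0.20, limma adjusted p = 0.0347), Dnajb1 (0.61 ± 0.16, limma adjusted p = 0.0154), Dnaja3 (0.48 ± 0.14, limma adjusted p = 0.0221) and Cct8 (0.46 ± 0.14, limma adjusted p = 0.0293). For Dnajb1 the difference came with a WT fall and a D- change near 0, and for the others with falls in both lines. The differences of Hspa14, Hsph1, Stip1 and Dnajb1 passed with any 1 array left out. Those of Fkbp4, Ahsa1, Dnaja3 and Cct8 each ended without D- 24 h replicate 1 and without WT 24 h replicate 2, among others, with limma adjusted p from 0.0519 to 0.142 over the arrays that ended them. With only the groups compared in the fit, these 4 did not pass (limma adjusted p 0.076 to 0.113). Leaving out 1 array moved the count of 8 to between 4 (without WT 24 h replicate 2) and 11, and it was 5 without D- 24 h replicate 1 or WT 24 h replicate 3. The larger array cluster alone, drawn from deviations of these same arrays, gave 8 calls and a median difference of 0.32. The smaller, with 1 treated array per group, gave a median of 0.21. At 24 h the Gapdh 3' minus 5' signal of WT arrays was 0.096 ± 0.196, against -0.053 ± 0.147 untreated, and that of D- arrays -0.093 ± 0.142, against -0.038 ± 0.084 untreated (log2, SD, n = 3 at 24 h and 4 untreated). This sign of RNA quality was higher in WT than in D- arrays at 24 h, by about the size of these SDs, and its part in these differences was not tested.

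**Figure D4:**
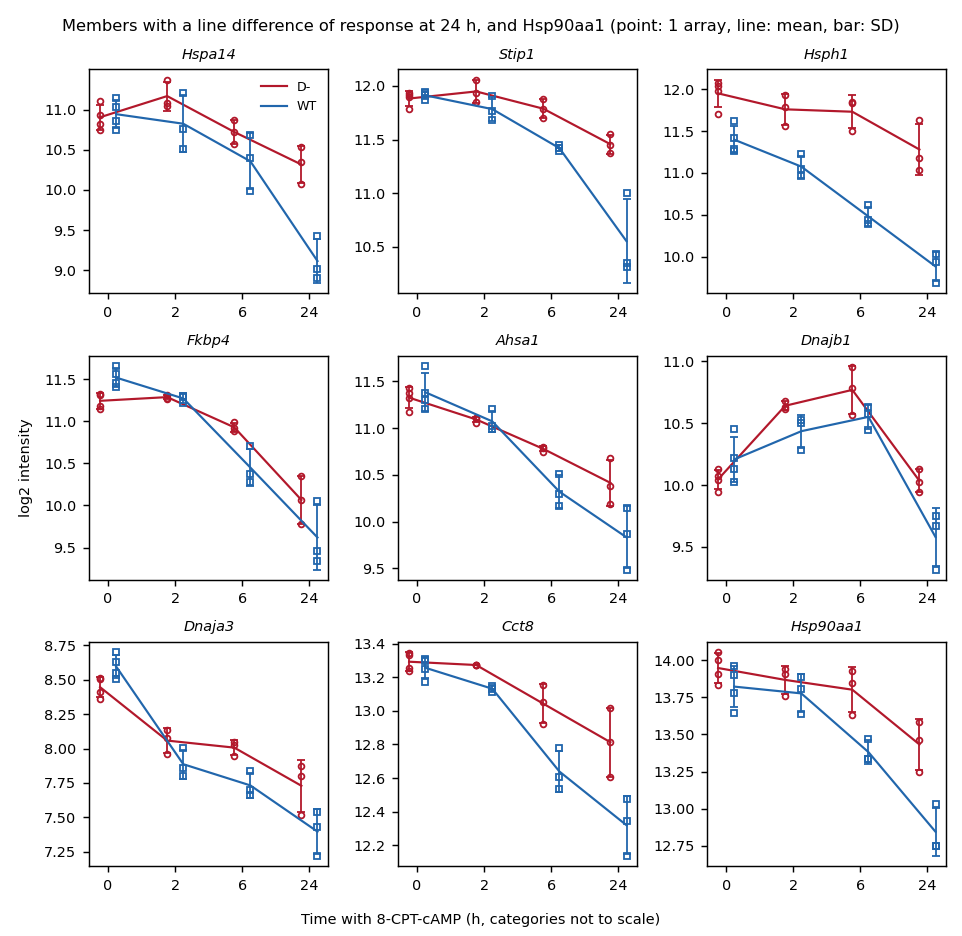
Log2 intensity (vertical axes, separate scales) against time with 8-CPT-cAMP (0, 2, 6 and 24 h, spaced as categories) for Hspa14, Stip1, Hsph1, Fkbp4, Ahsa1, Dnajb1, Dnaja3 and Cct8, whose response differed between the lines at 24 h, and for Hsp90aa1, whose difference missed the threshold. Each point is 1 array (D- circles, WT squares), lines join group means and bars are SDs (n = 4 at 0 h, 3 at other times). The WT points of Hspa14, Stip1 and Hsph1 lie below the D- points at 24 h.

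**Figure D5:**
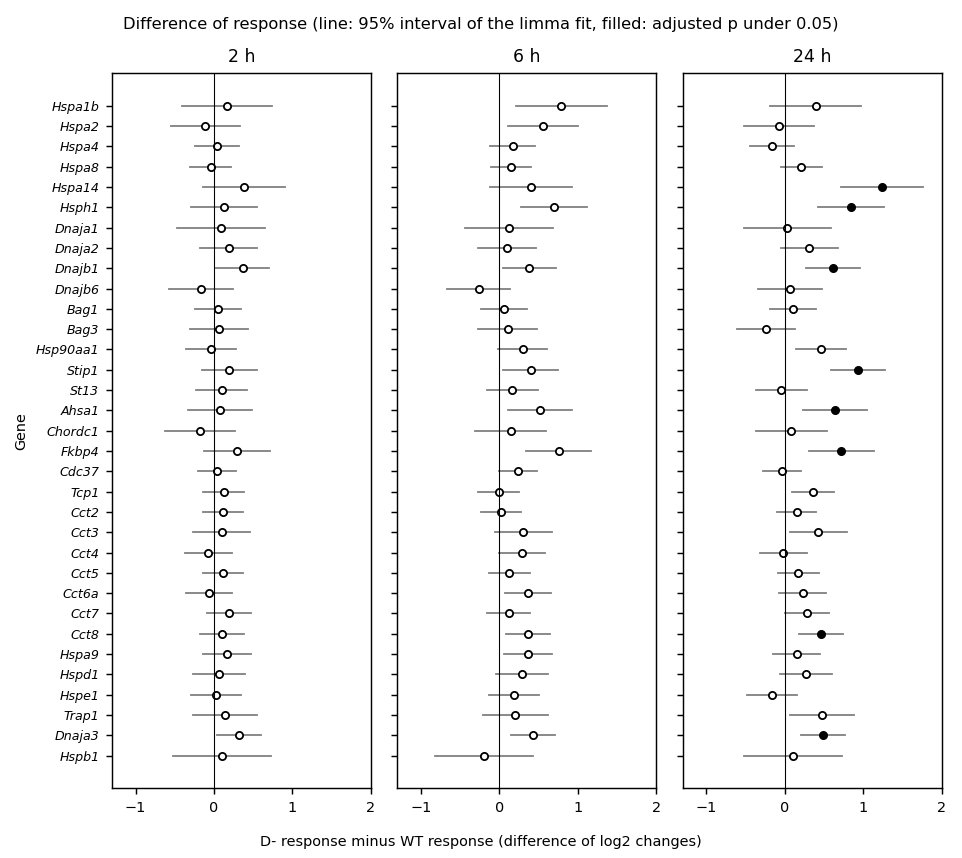
D- minus WT difference of response (horizontal axes, difference of log2 changes) of each tested member (vertical axis) at 2, 6 and 24 h. Lines are 95% confidence intervals of the limma fit and filled points have an adjusted p under 0.05. The 8 members called at 24 h lie between 0.46 and 1.24, all to the side where the D- change is above the WT change.

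Lists of related folding genes that are not members are set beside them here. Of all genes 16.2% rose and 15.6% fell at 6 h and 17.1% and 17.6% at 24 h in D- cells, against which these lists can be read, and in WT cells 19.1% and 19.1% at 6 h and 26.4% and 27.5% at 24 h. Of 17 tested genes of mitochondrial import and quality control, 0 rose and 11 fell at 6 h in D- cells and 0 rose and 11 fell in WT cells. At 24 h 1 rose and 11 fell in D- cells, and 1 rose and 14 fell in WT cells. Tomm40, the pore of the outer membrane translocase, changed by -1.34 in D- and -1.72 in WT cells at 24 h. Timm17a, of the inner membrane translocase, changed by -1.03 and -1.19, and Hscb, a J protein of iron-sulphur cluster assembly, by 0.43 and 0.93.

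Of 20 further HSP90 and HSP70 co-chaperones, 3 rose and 6 fell at 24 h in D- cells and 4 rose and 12 fell in WT cells. Unc45a, an HSP90 co-chaperone for myosin folding, rose by 0.55 in D- and 0.84 in WT cells, and Ruvbl2, an ATPase of the R2TP complex that works with HSP90, changed by -0.96 and -1.88. The line difference at 24 h passed for 5 of the 20, against 7.32% of all genes in this direction, all with the D- change above the WT change, led by Fkbp5 (1.67), the glucocorticoid-induced relative of Fkbp4, and Ruvbl2 (0.92). Of 14 further J proteins, 3 rose and 4 fell in D- and 4 rose and 4 fell in WT cells at 24 h, and Dnajb2 was higher at 2 h by 1.69 in D- and 1.28 in WT cells.

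Of 16 tested chaperones of the endoplasmic reticulum, at 6 h 4 rose and 1 fell in D- cells and 11 rose and 0 fell in WT cells. At 24 h 1 rose and 5 fell in D- and 4 rose and 5 fell in WT cells. Dnajc3, an inhibitor of eIF2-alpha kinases and ER J protein, rose at 6 h by 0.86 in D- and 1.14 in WT cells. Of 12 prefoldin and CCT helper genes, 2 rose and 3 fell in D- and 2 rose and 2 fell in WT cells at 24 h, few enough to lie near the shares of all genes in D- cells and below them in WT cells. Among them Pfdn6, a prefoldin subunit, changed by -0.65 and -1.09. Of 8 other stress genes, 2 rose and 1 fell in D- and 4 rose and 1 fell in WT cells at 24 h, with Gadd45a, a growth arrest gene, higher by 2.99 in D- and 3.85 in WT cells. These lists were not compared with the members by any test.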

How the data were processed

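Per the submitters' processing notes, the authors used GCRMA, and the deposited value of each probe set is an intensity on a linear scale (2 to 83530.7). GCRMA estimates background from the sequence of each probe and, as usually run, normalizes the probes between arrays, so a change common to most genes may be lost. The array medians of the deposited values still ran from -0.069 to 0.058 around their mean (log2). Its version is not given in the sources used here. Log2 was taken with no pseudocount. The 22690 probe sets included 64 array controls, which were dropped. The platform annotation gave 20380 of them 1 gene symbol, 691 several and 1555 none, and probe sets with several symbols named no gene.

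Testing covered the 12724 probe sets that reached log2 5 (intensity 32) on 3 or more arrays. Each of their 7433 genes was represented by its brightest probe set on average. Of the 33 members tested, 21 had more than 1 probe set, 34 further probe sets in all, and 1 case of opposite calls within a member (Hspa4 at 2 h in D- cells). A linear model of 8 group means over the 26 arrays was fitted with lmFit and eBayes of limma 3.58.1 (R 4.3.3), with 18 residual degrees of freedom and 3.34 from the prior. It gave the change from untreated cells at each time in each line, the difference between the untreated lines, and, as interactions, the differences of response between D- and WT cells. Errors printed after ± are standard errors of limma unless given as SD, and p-values were adjusted by Benjamini-Hochberg over all probe sets tested in a contrast. The number of arrays limits the precision.

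The members and the lists of related genes were chosen with earlier results of these data known. Values of every array are given for the 3 called members with the largest change in each comparison with untreated cells and between untreated lines, the 4 with the largest difference of response, and for Hspa1b, Hsph1, Hsp90aa1, Hspa8, Hspd1 and Hspe1 in any case. Hsf1, Hsp90ab1 and Hspa1a were also to be described and are given as unmeasured or below the limit. St13, and some arrays of Cct3, Tcp1 and Cdc37, were added after their values were seen. Of a related list at most 2 called genes in each direction of a comparison are named. The fit was tested on simulated data over 12724 probe sets: for WT at 6 h it recovered 43.3%, 89.6% and 98.5% of log2 changes of 0.5, 1 and 2, with 5 false calls. The line difference at 6 h was recovered in 19.4%, 62.7% and 95.5% of cases at these sizes, also with 5 false calls. The simulated noise was independent between arrays and probe sets, while 1 axis held 38.8% of the real variance within groups. The simulation changed 67, 67 and 66 probe sets at these sizes, against 4601 called in WT cells at 6 h. Its rates therefore need not hold for these data. The alternatives tried were array weights, a trended and robust eBayes, a fit of only the groups compared, added quantile normalization or median centring, no filter or one at log2 7, averaging a gene's probe sets, a block for replicate number or array cluster, each cluster alone, and leaving out each array. Promoters came from RefSeq (GRCm38.p6). Summaries and plots used Python 3.11.15, with numpy 2.4.6, and matplotlib 3.10.9.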

Additional observations from a re-analysis of the deposited data

Results flagged for a closer look

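Of 70 groups of 4 untreated arrays (35 members in 2 lines), 2 held an array far from the other 3, while chance alone flags about 1 group in 20. For Hspa9, untreated WT replicate 2 read 12.33 on the log2 scale, below the other untreated WT arrays, and the gap to the nearest was 0.852 of the range of the group. For Bag3, untreated D- replicate 3 read 7.39, below the other untreated D- arrays, with a gap of 0.870 of the range. Both gaps exceed the 95% limit of Dixon for groups of 4.

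The response at 24 h differed between D- and WT cells in 8 members by the limma interaction test, always with the D- change above the WT change. The differences were 1.24 for Hspa14 (limma adjusted p = 0.00195), 0.93 for Stip1 (0.000737), 0.84 for Hsph1 (0.00726) and 0.72 for Fkbp4 (0.0211). They were 0.64 for Ahsa1 (limma adjusted p = 0.0347), 0.61 for Dnajb1 (0.0154), 0.48 for Dnaja3 (0.0221) and 0.46 for Cct8 (0.0293).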

How the results depend on the processing

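Counts of members called in each comparison were mostly within 1.5 times the reported value under the alternatives, and no median of the members past 0.1 in size changed sign. Arrays of the smaller cluster alone, with 1 treated array per group, gave fewer calls: 0, 2 and 1 members in D- cells at 2, 6 and 24 h, 0, 3 and 16 in WT cells, 0 between untreated lines and 0 for the difference at 24 h. Between untreated lines, 2 members in place of 1 passed with trend and robust settings, with no filter and with the array cluster as a block. For the difference of response at 6 h, where 0 passed, 7 passed with array weights, 1 with the array cluster as a block and 2 in the larger cluster alone. For the difference at 24 h, 4 passed with only the groups compared. The cause of these shifts was not tested. The array clusters were drawn from the deviations of these same arrays. A block for them takes up residual spread by construction, so calls gained with it are not separate support. A fit of 1 cluster alone leaves out the spread between clusters, so its calls are not separate support either.

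Leaving out 1 array at a time, between 5 and 6 members passed in D- cells at 2 h, 13 and 15 at 6 h and 19 and 22 at 24 h. In WT cells the ranges were 2 to 5, 20 to 25 and 21 to 25, with the lowest count at 2 h without WT 2 h replicate 3. The 1 call between untreated lines, Hsph1, ended without untreated D- replicate 4, untreated WT replicate 3 or untreated WT replicate 4. The range there was 0 to 1, with 0 without untreated D- replicate 4. For the difference of response it was 0 to 0 at 2 h, 0 to 1 at 6 h (Fkbp4, without WT 6 h replicate 1) and 4 to 11 at 24 h.

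With a gene's probe sets averaged, changes at 2 h turned negative for Hspa4 in D- cells (-0.40) and for Dnaja2 in D- (-0.67) and WT cells (-0.88). Their probe sets disagree. Apart from these, averaging ended the calls of 2 members at 6 h and 2 at 24 h in D- cells. It also ended 2 calls at 24 h in WT cells and 1 line difference at 24 h. Calls gained in D- cells were 1 at 2 h, 3 at 6 h and 1 at 24 h. In WT cells 1 was gained at 2 h and 1 at 6 h, and 1 line difference was gained at 24 h.

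The replicate numbers do not pair the samples by the labels. Of 85 pairs with the same number, 68 had deviations from the group means that correlated at r above 0.1 (range -0.468 to 0.655, median 0.266, against -0.205 for other pairs). With the replicate block, 7, 16 and 21 members passed in D- cells at 2, 6 and 24 h, 5, 25 and 24 in WT cells, 2 between untreated lines and 0, 0 and 9 for the difference of response.

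Probe sets near the limit of log2 5 (Hspb1, Hspa1b, Hspa2) have little signal over background, and how far this limits the changes seen there was not tested.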
